A study of Mus musculus with 12 samples.

Results

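The genes described here encode the proteins of the cytosolic ribosome, together with a few near copies of them, in mouse stromal, converted epithelial and keratinocyte cultures. Members were chosen by symbol alone. Any entry named Rpl or Rps followed by a number, with or without letters after it, was taken with Rplp0, Rplp1, Rplp2 and Rpsa, while the Rps6k kinases, Rps19bp1 and entries ending in -ps or -rs were left out. This gave 88 of the 24537 genes of the table. Of these, 5 are paralogs treated apart (Rpl39l, Rpl3l, Rpl22l1, Rpl7l1 and Rps27l), and the other 83 are called the core set, with 33 genes of the small and 50 of the large ribosomal subunit. The core set still holds 6 extra copies (Rpl10l, Rpl32l, Rpl36al, Rpl37rt, Rps27rt and Rps4l).

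RNA was sequenced from 12 cultures, 3 in each of 4 groups, and the same 3 mice gave each group. All mice carried Pdgfra-creER and the LSL-tdTomato reporter, in which a Cre made under the Pdgfra promoter switches on a red fluorescent protein. ADSCs were Pdgfra-positive stromal cells cultured from subcutaneous fat, in DMEM with 10% FBS. In vitro iSEPs, induced stratified epithelial progenitors, were epithelial cells made from such ADSCs in culture. In vivo iSEPs were cultured from epithelial tissue that had formed from ADSCs in the animal, and keratinocytes were cultured from back skin. These last groups grew in keratinocyte medium without serum, so medium and cell type cannot be told apart in any comparison with ADSCs. The sources used here do not give the agents used for conversion, the ages of the mice or whether animals were pooled.

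The ribosome reads messenger RNA and joins amino acids into protein. Its small subunit holds the decoding site, its large subunit forms the peptide bond, and a stalk made of Rplp0, Rplp1 and Rplp2 recruits the elongation factors. Most ribosomal proteins are needed in equal number, and their messengers usually begin with a 5′ terminal oligopyrimidine (TOP) tract through which growth signals set their translation. Rpl39l is a retained copy of Rpl39, whose short protein lines the exit tunnel of the large subunit, and it is best known from the testis.

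The coding sequences of Rpl39 and Rpl39l are shown because they show how far the reads of the pair can be separated. Both come from mouse transcripts of GENCODE M21, and capitals mark the bases that differ.
Rpl39: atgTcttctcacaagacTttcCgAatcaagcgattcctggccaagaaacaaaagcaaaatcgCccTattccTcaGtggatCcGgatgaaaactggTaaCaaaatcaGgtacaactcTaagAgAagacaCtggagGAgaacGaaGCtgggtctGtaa
Rpl39l: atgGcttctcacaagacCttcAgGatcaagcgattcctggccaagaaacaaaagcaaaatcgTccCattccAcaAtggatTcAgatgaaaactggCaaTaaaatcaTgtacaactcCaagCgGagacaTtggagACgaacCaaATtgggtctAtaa
Each is 156 bases long, 23 bases differ, the identity is 85.3% and the longest identical run is 38 bases. No run of 50 bases in the Rpl39l transcript was found in any other annotated gene, whereas 16.5% of those of Rpl39 were. In the deposited table Rpl39l spans chr16:10170228-10174911 on the plus strand and Rpl39 spans chrX:37082518-37085222 on the minus strand (mm10).

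Sequences around the start of transcription are shown because the TOP tract is the shared feature of these messengers. Each run holds 15 bases before and 15 after the RefSeq start (GRCm38.p6), with the first 5 transcribed bases in capitals.
Rplp2, chr7:141447636-141447665, plus strand: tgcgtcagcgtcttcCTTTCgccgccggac
Rpl14, chr9:120571502-120571531, plus strand: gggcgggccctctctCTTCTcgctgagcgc
Rps21, chr2:180257364-180257393, plus strand: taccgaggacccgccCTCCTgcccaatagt
Rpl39, chrX:37085208-37085237, minus strand: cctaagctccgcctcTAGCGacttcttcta
Rpl39l, chr16:10170213-10170242, plus strand: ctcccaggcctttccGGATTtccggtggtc
The pattern searched was a C at the first transcribed base followed by 4 bases that are each C or T, on the gene's own strand. It stood at the start in 13 of the 61 core genes with a window (21.3%), among them Rplp2, Rpl14 and Rps21. Over all promoters of the RefSeq table it stood in 823 of 32851 (2.51%). None of the 5 paralogs had it, and neither did Rpl39, at the listed start. A start listed a few bases off hides such a tract, so the letters describe these windows only.

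Values are FPKM, reads per transcript length and library depth, and were compared as log2(FPKM + 1), which understates the change of low genes. Between 20910000 and 27670000 reads of a library were estimated to lie in listed genes. Stromal markers (Pdgfra, Vim, Col1a1, Col1a2, Thy1) summed to 5052 to 5743 FPKM in ADSCs and to between 25.02 and 222.3 in the other groups, while markers of stratified epithelium (Krt5, Krt14, Trp63, Cdh1, Grhl2, Col17a1) summed to 11.1 to 12.34 in ADSCs and to at least 10070 in the others. Markers of erythroid cells were listed at 0 in all 12 libraries, those of melanocytes summed to at most 2.336 FPKM and those of immune cells to at most 55.67, in an ADSC library. The culture of mouse 3 among the in vivo iSEPs differed from the others of its group in several sums. Its simple epithelial keratins Krt8, Krt18 and Krt19 summed to 202.9 FPKM against 4.165 and 6.851 in the others. Its stromal markers summed to 166 against 28.19 and 49.67, and the 166 lay within the 67.13 to 222.3 of the in vitro iSEPs. Its cell cycle genes summed to 79.89 against 706.8 in mouse 1 and 245.2 in mouse 2, so mouse 1 was also far from mouse 2. Muscle markers summed to 71.42 FPKM in the in vivo culture of mouse 3 and to 1.213 and 1.59 in those of mice 1 and 2. They summed to 31.27 to 77.78 in ADSCs, 0.751 to 16.38 in in vitro iSEPs and 83.58 to 101.2 in keratinocytes. Single genes made up most of several of these sums. The highest single value in that in vivo culture was 70.04 FPKM among muscle markers and 147.7 among stromal markers. It was 50.46 among immune markers in ADSCs and 101.1 among muscle markers in keratinocytes, where only 1 of 4 muscle markers reached 1 FPKM. Where total in vivo counts of the core set or of a list are given, and where a gene called in vivo is given with values, the value without the in vivo culture of mouse 3 is given too. For the lists no other library was left out.

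Core ribosomal protein genes had their highest mean summed level in the in vitro iSEPs, and 1 in vivo library lay far below the other in vivo libraries. The core set summed to 17020 ± 2648 FPKM there (SD, n = 3), to 14620 ± 3972 in in vivo iSEPs, to 11410 ± 1442 in keratinocytes and to 11040 ± 1342 in ADSCs. By library, the sums were 10239, 12589 and 10290 in ADSCs of mice 1, 2 and 3, then 19919, 14734 and 16396 in in vitro iSEPs. In vivo iSEPs had 16994, 16828 and 10032, and keratinocytes had 9782.1, 11894 and 12539. The in vitro iSEPs did not overlap with ADSCs or keratinocytes, and neither did the first 2 in vivo cultures, but the in vivo culture of mouse 3 lay below all ADSC libraries. The first 2 in vivo cultures were also above 2 of the 3 in vitro cultures. As a share of all listed FPKM the set made up 3.37 ± 0.339% for ADSCs, 4.54 ± 0.586% for the in vitro iSEPs, 3.99 ± 0.996% for the in vivo iSEPs and 3.15 ± 0.312% for keratinocytes (SD, n = 3). The mean of keratinocytes was thus above that of ADSCs by sum and below it by share, each by less than 1 SD. In bulk RNA, a change in the number of cells that make a messenger and in the amount each makes cannot be told apart.

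**Figure D1:**
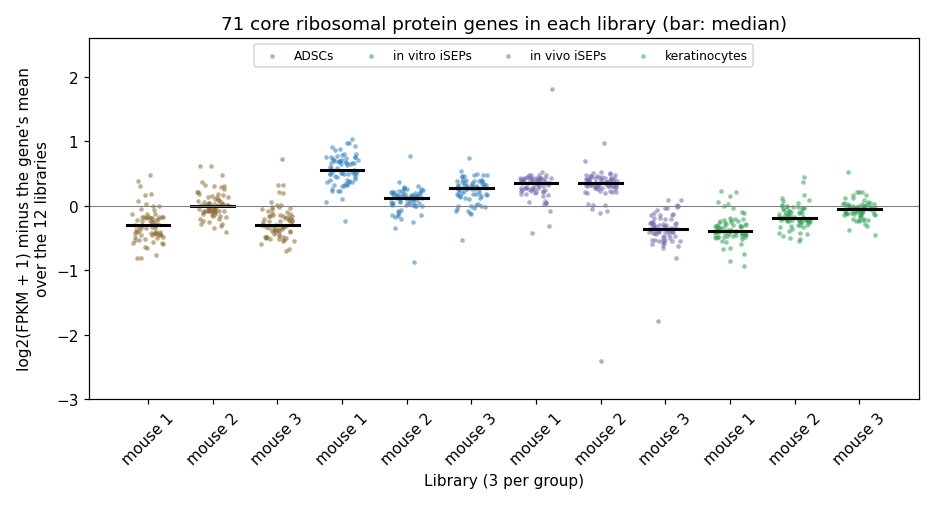
Each point is 1 of 71 core ribosomal protein genes in 1 library: log2(FPKM + 1) minus that gene's mean over the 12 libraries, with a bar at the median and colours for the 4 groups. The in vivo culture of mouse 3 has a median of -0.362, near the -0.388 of the keratinocyte culture of mouse 1, while the other in vivo cultures lie at 0.344 and 0.352.

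The genes moved together within groups as well as between them. Mouse 3 was the lowest of the 3 in vivo cultures for 67 of the 71 core genes that passed a filter of at least 1 FPKM in at least 3 libraries. Mouse 1 was the highest in vitro culture for 58, mouse 2 the highest ADSC culture for 60 and mouse 1 the lowest keratinocyte culture for 60. Over the 12 libraries the Pearson correlation of a core gene with the median deviation of the other core genes had a median of 0.897, and it was above 0.9 for 34 of 71. Only 7 fell under 0.5, namely Rpl10a, Rpl21, Rpl9, Rps2, Rps27, Rps27rt and Rps4l. These counts and correlations are descriptions over libraries that share groups and depth. Neither was set beside all genes, so how far they are particular to the core set was not tested.

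In vitro iSEPs had higher levels of many ribosomal protein messengers than the ADSCs they came from. Of 71 core genes, 29 rose and 0 fell at an adjusted p (limma, Benjamini-Hochberg over 12364 genes) below 0.05. That is 40.8% of the core set, while among all genes tested 32.1% were higher and 21.7% lower. The median log2 difference was 0.48 in the core set against 0.15 over all genes, and 67 of 71 lay above 0. Of the small subunit genes 10 of 29 rose, with a median of 0.43, and of the large subunit genes 19 of 42 rose, with a median of 0.52.

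Rps15, Rpl37a and Rpl4 were among the largest rises. Rps15, a small subunit protein near the decoding site, was at 542.7, 558.5 and 453.2 FPKM in ADSCs and at 1170, 905.6 and 1018 in in vitro iSEPs. Every in vitro library lay above every ADSC library, and the log2 difference was 0.99 (SE 0.23, limma adjusted p = 0.00391). Rpl4, a large subunit protein that reaches into the exit tunnel, was at 831, 984.9 and 835 FPKM in ADSCs and at 1869, 1427 and 1672 in in vitro iSEPs. It rose by 0.90 on the log2 scale (SE 0.25, limma adjusted p = 0.00986), and with no filter on low genes its adjusted p was 0.0688. Rpl37a, of the large subunit, was lower in abundance. It was at 12.77, 15.79 and 15.07 FPKM in ADSCs and at 37.29, 23.48 and 25.9 in in vitro iSEPs, a rise of 0.92 (SE 0.20, limma adjusted p = 0.00218). Its groups did not overlap.

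Among proteins with named roles, calls were divided. In the stalk, Rplp0 rose by 0.55 (adjusted p = 0.0154), while Rplp1 differed by 0.47 (adjusted p = 0.169) and Rplp2 by 0.28 (adjusted p = 0.121). Rpl23, which like Rpl5 and Rpl11 can bind Mdm2 when ribosome assembly fails, rose by 0.71 (adjusted p = 0.0355), and the differences of Rpl5 and Rpl11 were 0.20 and 0.34 with adjusted p of 0.489 and 0.149. Rps6, whose protein is phosphorylated by the S6 kinases, differed by 0.31 (adjusted p = 0.206). Rps19, the gene most often mutated in Diamond-Blackfan anaemia, differed by 0.19 (adjusted p = 0.533), and Rpsa, also known as the laminin receptor, by 0.37 (adjusted p = 0.162). Rps27a, made as a fusion with ubiquitin, differed by 0.43 (adjusted p = 0.117), Rpl13a by 0.43 (adjusted p = 0.147) and Rpl10 by 0.28 (adjusted p = 0.303). Rpl38 did not pass the filter.

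The number called depended on single libraries. Without mouse 1 of the ADSCs 7 of the 71 core genes were called higher, where 29.3% of all genes were. Without mouse 3 of the ADSCs 9 were, against 27.1% of all genes, and without mouse 1 of the in vitro iSEPs 7, against 30.5%. With libraries shifted to one median the count was 12, against 25.2% of all genes, and with FPKM rescaled to one total 10, against 23.6%. In each of these 5 fits the share of core genes called was thus below that of all genes. The core median stayed above that of all genes in both, at 0.35 against 0.01 and at 0.32 against -0.01.

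**Figure D2:**
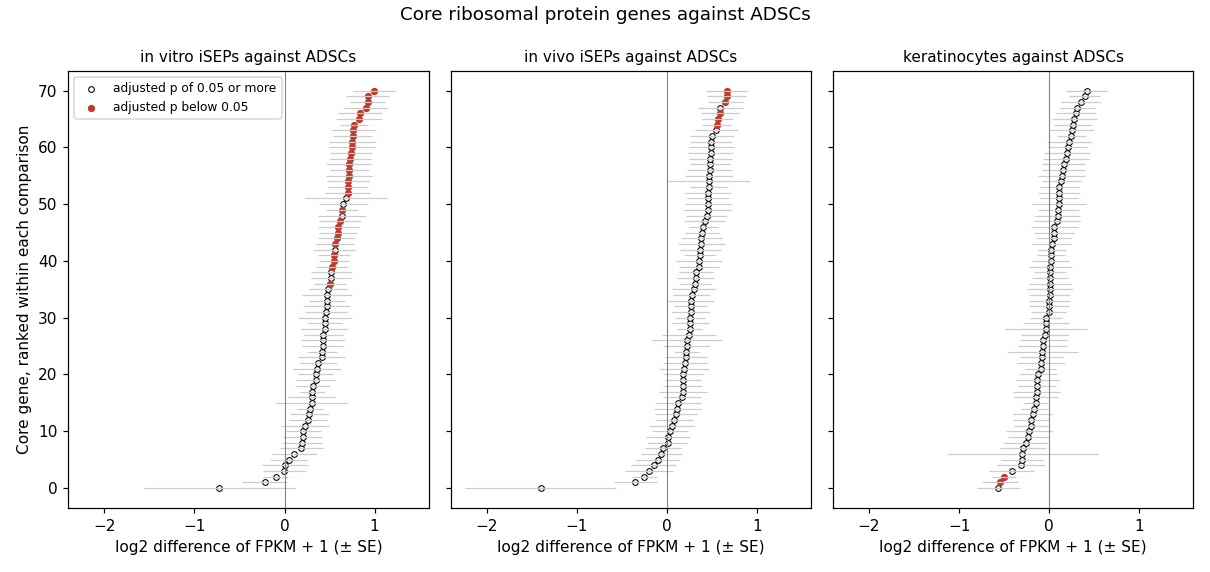
Log2 differences of FPKM + 1 with their SE for the 71 core genes, ranked within each of the 3 comparisons with ADSCs, filled red where the adjusted p is below 0.05. The in vitro iSEPs have 29 red points, all to the right of 0, in vivo iSEPs have 6, also to the right, and keratinocytes have 2, both to the left. The isolated point at -0.72 in the first panel and -1.40 in the second is Rps4l.

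In vivo iSEPs showed fewer called genes against ADSCs, and the count turned on the culture of mouse 3. With all libraries 6 core genes rose (Rps15, Rpl36al, Rpl37a, Rpl17, Rpl29 and Rpl7a) and 0 fell, which is 8.45% of the set against 27.6% higher and 20% lower among all genes. The core median was 0.30 against 0.14 over all genes. Without that culture 39 core genes rose, 54.9%, where 30.3% of all genes were called higher, and the core median was 0.53. In vivo levels of Rps15 were 991.7, 995.8 and 558.3 FPKM for mice 1, 2 and 3, so the first 2 stood within the in vitro range and the last near the top of the ADSC range. Rps15 rose by 0.67 over all 3 (SE 0.23, adjusted p = 0.0342) and by 0.94 without mouse 3 (adjusted p = 0.00114).

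Leaving out either of the other in vivo cultures had the opposite effect, with 1 core gene higher and 1 lower without mouse 1, where 24.4% of all genes were higher and 20.6% lower. Without mouse 2, 0 core genes were called by limma and 5 had an unadjusted p below 0.05, where 24.9% and 17.6% of all genes were called higher and lower. Rpl36al, a near copy of Rpl36a on an autosome, was at 53.07, 45.65 and 32.96 FPKM in vivo against 22.86, 30.79 and 27.42 in ADSCs, with no overlap. It rose by 0.66 (SE 0.22, adjusted p = 0.0265), by 0.85 without mouse 3 of the in vivo iSEPs (adjusted p = 0.00689), with an adjusted p of 0.0957 without mouse 1 of the ADSCs. Rpl17, a large subunit protein at the tunnel exit, rose by 0.59 (SE 0.21, adjusted p = 0.0423) and lost its call when any of several single libraries was left out, up to an adjusted p of 0.144 without mouse 3 of the ADSCs. The rise of Rpl17 without mouse 3 of the in vivo iSEPs was 0.77 (adjusted p = 0.0118). Rpl37a rose by 0.65 (SE 0.20, adjusted p = 0.0179), and by 0.84 without that culture (adjusted p = 0.00307). Without mouse 3 of the in vivo iSEPs the count against ADSCs also moved for the in vitro iSEPs, to 40 core genes higher where 34.7% of all genes were, because all libraries share 1 estimate of the spread.

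In keratinocytes the middle of the core set lay near its level in ADSCs. Of its genes 0 rose and 2 fell in limma, and 4 had an unadjusted p below 0.05, as had 58.9% of all genes. Among all genes 32.8% were higher and 20.7% lower. The core median was 0.01 with FPKM as deposited, and -0.17 with libraries shifted to one median, where all genes were at 0.01. Rpl27a, a large subunit protein, was at 45.18, 58.04 and 45.96 FPKM in ADSCs and at 30.71, 34.25 and 35.64 in keratinocytes. It fell by 0.55 (SE 0.20, adjusted p = 0.0366), and with the mouse as a replicate block its adjusted p was 0.0577. Rpl21, listed at only 1.663, 2.21 and 2.247 FPKM in ADSCs, was at 1.095, 1.216 and 1.097 in keratinocytes and fell by 0.50 (SE 0.13, adjusted p = 0.00863). The groups did not overlap for either gene. With the replicate block 1 of the 2 calls remained, that of Rpl21.

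The 2 kinds of epithelial cell grown in the same medium can be compared directly. Against keratinocytes, in vitro iSEPs had 70 of 71 core genes above 0, with a median of 0.53 where that of all genes was -0.02. Of these 5 rose (Rpl39, Rpl37a, Rpl27a, Rpl7a and Rps10) and 0 fell, 7.04% of the set, against 5.22% higher and 6.12% lower among all genes. At an unadjusted p below 0.05, 37 core genes were higher, as were 12.9% of all genes. Rpl39 was at 294.2, 172.3 and 191.6 FPKM in in vitro iSEPs and at 87.7, 103.5 and 137.3 in keratinocytes, with no overlap, and rose by 0.98 (SE 0.25, adjusted p = 0.0326). Rpl7a, a large subunit protein, was at 49.18, 36.38 and 43.7 FPKM against 21.09, 25.01 and 29.61, also with no overlap, and rose by 0.75 (SE 0.16, adjusted p = 0.0133).

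These calls were few and moved easily. Without mouse 1 of the keratinocytes 0 core genes were called by limma and 14 had an unadjusted p below 0.05, where 2.99% of all genes were called higher and 3.15% lower. Without mouse 2 of the keratinocytes 0 were called and 23 had such a p, where 1.96% of all genes were called higher and 2.28% lower. Without mouse 3 of the in vivo iSEPs 30 were, where 7.71% of all genes were called higher. With the replicate block 3 were called higher, against 4.89% of all genes, and Rpl27a and Rps10 had adjusted p of 0.0568 and 0.059. Rpl37a rose by 0.87 (SE 0.20, adjusted p = 0.0181) and Rpl27a by 0.76 (SE 0.20, adjusted p = 0.0338) with all libraries.

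In vivo iSEPs against keratinocytes gave 0 core genes called by limma, 9 at an unadjusted p below 0.05 (22.6% of all genes) and a median of 0.31, against 3.41% higher and 4.08% lower among all genes. Without mouse 3 of the in vivo iSEPs 18 rose, where 5.4% of all genes did, with a median of 0.55. Between the 2 kinds of iSEP 0 core genes were called by limma and 1 had an unadjusted p below 0.05 (14.9% of all genes), against 0.679% higher in vivo and 0.946% lower among all genes. The core median was -0.21 with the in vivo culture of mouse 3 and 0.01 without it.

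The listed level of single core genes ran from 0 to 1546 FPKM as a mean over the 12 libraries, although most of the proteins are needed in equal number. Rplp1 was the highest, at 1331, 1541 and 1220 FPKM in ADSCs and 2263, 1661 and 1788 in in vitro iSEPs. Rpl4 had a mean of 1249 and Rpl8 of 1065. At the other end Rpl10l, an autosomal copy of Rpl10 known from the testis, was listed at 0 in all 12 libraries, where 3 reads would be 0.0925 to 0.119 FPKM. Rpl38 was at most 1.343 and Rps29, Rpl23a and Rpl28 had means of 0.226, 0.306 and 0.351. In all, 30 core genes reached a mean of 100 FPKM, 15 stayed under 1, and 12 did not pass the filter.

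Ribosomal protein genes have many near-identical copies, and how reads that match several of them entered these listed levels is not known. A median of 49% of the 50-base words of a core transcript also occurred in another annotated gene, and 82 of 83 shared words with at least 1 annotated pseudogene. The share was 86.7% for Rps18, with a mean of 114.6 FPKM, and 93.3% for Rpl9, with a mean of 1.237 FPKM. Core genes with a mean under 1 FPKM had a median share of 51.7%, and those at 500 FPKM or more had 19.2%. Spearman's rho between mean FPKM and the shared percentage was -0.35 over the 83 genes for words of 50 bases and -0.48 for words of 100, as a description across genes, which are not replicates. The sources used here do not say how reads with several matching places were counted, and the part of shared sequence in the levels was not tested.

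**Figure D3:**
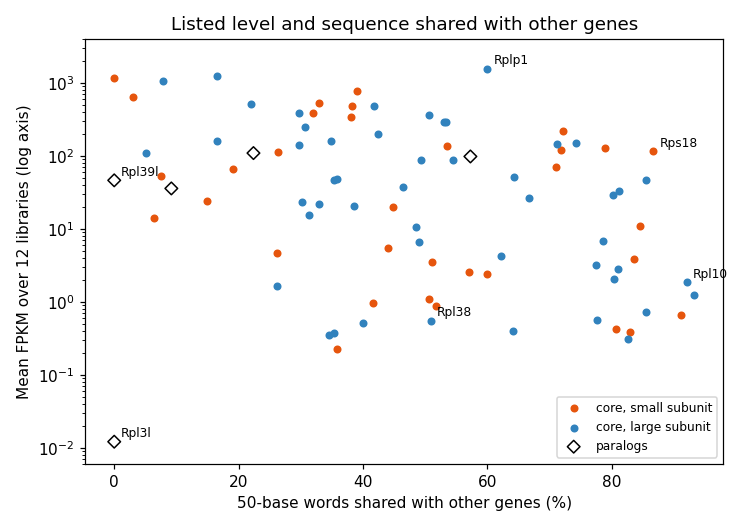
Mean FPKM over 12 libraries (log axis) against the percentage of a transcript's 50-base words that occur in another annotated gene, for core genes of the small and large subunits and for the paralogs. The paralogs Rpl39l and Rpl3l share 0% of their words, and core genes under 1 FPKM span 34.5% to 91.1% apart from Rpl10l, which is listed at 0 and not drawn.

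Counts of called genes were also split by the shared percentage. Among the 38 core genes with under 50% of words shared, 18 rose in in vitro iSEPs against ADSCs with a median of 0.55, and among the 33 with more, 11 rose with a median of 0.47. In in vivo iSEPs 3 of the 38 and 3 of the 33 rose, with medians of 0.34 and 0.26. Keratinocytes had 0 and 0 higher, with medians of 0.00 and 0.01. Of all genes tested, 32.1%, 27.6% and 32.8% were called higher, listed by comparison as above. The 18 of 38 thus lay above that share and the 11 of 33 near it. The in vivo and keratinocyte counts lay below it. The split is given with all libraries only. Without the in vivo culture of mouse 3, 39 of the 71 core genes rose in vivo, where 30.3% of all genes did. The part of shared sequence in the differences between groups was not tested. Several entries overlap another listed entry in position, and how far such entries count the same reads was not tested. Rpl34 and Rpl34-ps1 kept a ratio of 1.19 in every library, Rps27 and Rps27rt lie on the same place on chromosome 3, and Rpl26 and Rpl30 each overlap a Gm entry of similar level.

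Some core entries did not follow the set. Rps4l, an autosomal copy of the X-linked Rps4x, was at 68.35, 2.706 and 4.738 FPKM in in vivo iSEPs of mice 1, 2 and 3, against 26.52, 29.26 and 31.56 in ADSCs. Its in vivo values lay on both sides of the ADSC range, and the log2 difference was -1.40 (SE 0.84, limma adjusted p = 0.196). Keratinocytes had 18.18, 25.78 and 27.43 and in vitro iSEPs 22.18, 9.81 and 23.07. Rps4x itself followed the set, with means of 170.4 ± 29.6 in ADSCs, 283.5 ± 59.7 in the in vitro and 243.2 ± 69.6 in the in vivo iSEPs, and 189 ± 25 in keratinocytes.

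Rps3a1 and Rps2, both of the small subunit, each had 1 mouse at the same end of the range in all 4 groups. Rps3a1 in mouse 2 was at 98.52 FPKM among ADSCs, 109.7 among in vitro iSEPs, 125.9 among in vivo iSEPs and 82.92 among keratinocytes, the highest of each group. Rps2 in mouse 1 was at 68, 101.9, 96.66 and 62.37 FPKM in the same order, the lowest of each group. An F test of the mouse, chosen after these values were seen, gave unadjusted p of 0.000543 and 0.000451 in limma and adjusted p of 0.348 and 0.344. Of the core set 0 passed this limma test after adjustment and 3 had an unadjusted p below 0.05, while 0.0324% of all genes passed. A mouse that was highest or lowest in all 4 groups was found for 2 of 71 core genes and for 8.93% of all genes tested. Rps3a1 shares 71% and Rps2 79% of its 50-base words with other genes.

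**Figure D4:**
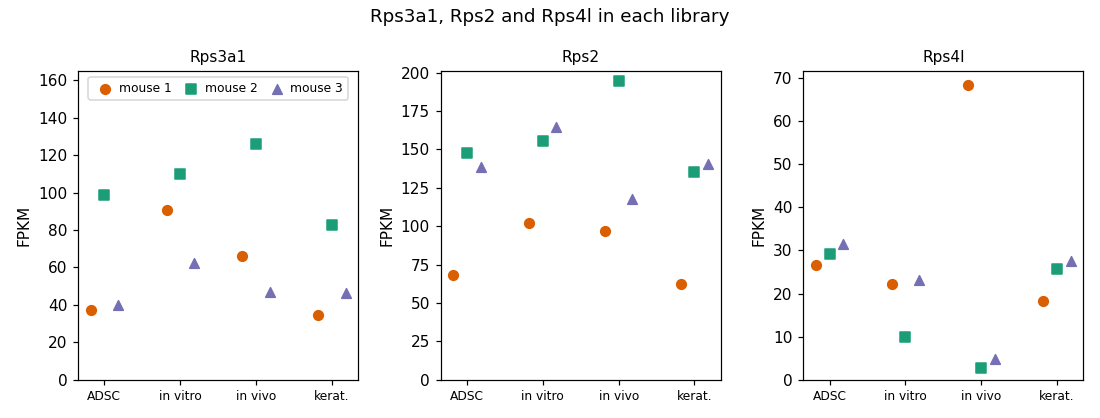
FPKM of Rps3a1, Rps2 and Rps4l in each of the 12 libraries, by group, with colour and symbol for the mouse. Mouse 2 is highest in each group for Rps3a1, mouse 1 is lowest in each group for Rps2, and Rps4l ranges from 2.706 to 68.35 within the in vivo iSEPs.

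Rpl39l differed between groups far more than any core gene. It was at 243.3, 122.7 and 63.01 FPKM in in vivo iSEPs of mice 1, 2 and 3 and at 15.01, 24.17 and 11.99 in ADSCs. In vitro iSEPs had 71.21, 1.629 and 0.101, and keratinocytes 0.083, 0 and 0.042, which are an estimated 2, 0 and 1 reads. Group means were thus ordered in vivo iSEPs (143 ± 91.8, SD, n = 3), in vitro iSEPs (24.3 ± 40.6), ADSCs (17.1 ± 6.34) and keratinocytes (0.0417 ± 0.0415). Every in vivo library lay above every ADSC library and every ADSC library above every keratinocyte library. The in vitro group spanned from below the ADSC range to the in vivo range, and its first culture was also the highest in summed core FPKM.

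Of the 6 comparisons, 2 were called for Rpl39l. It was higher in in vivo iSEPs than in keratinocytes by 6.90 on the log2 scale (SE 1.18, limma adjusted p = 0.006) and lower in keratinocytes than in ADSCs, at -4.06 (SE 1.18, adjusted p = 0.0133). Both calls held in all 20 alternatives, and without mouse 3 of the in vivo iSEPs the first was 7.38 (adjusted p = 0.00494). In vivo iSEPs against ADSCs gave 2.84 (adjusted p = 0.0682), with 0.0459 under the replicate block, 0.00377 with only the 2 groups compared and 0.0352 without mouse 3 of the in vitro iSEPs. Without mouse 3 of the in vivo iSEPs it was 3.32 (adjusted p = 0.0566), and over all 20 alternatives the adjusted p ran from 0.000622 to 0.176. In vivo against in vitro iSEPs gave 4.39 (adjusted p = 0.0993), and the remaining differences were -1.55 for in vitro iSEPs against ADSCs (adjusted p = 0.291) and 2.51 for in vitro iSEPs against keratinocytes (adjusted p = 0.192). Without mouse 1 of the in vitro iSEPs, the values were 2.84 (adjusted p = 0.000622) for in vivo iSEPs against ADSCs, 6.19 (adjusted p = 0.00154) for in vivo against in vitro iSEPs and -3.35 (adjusted p = 0.000465) for in vitro iSEPs against ADSCs.

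Rpl39 stayed within a far smaller range, so the makeup of the pair changed. Rpl39l made up 54.9%, 38.8% and 34.7% of the summed FPKM of Rpl39 and Rpl39l in in vivo iSEPs of mice 1, 2 and 3. It made up 10.3%, 14.4% and 9.48% for ADSCs, 19.5%, 0.937% and 0.0527% for the in vitro iSEPs and at most 0.0946% for keratinocytes. Rpl39 was at 199.7, 193.3 and 118.7 FPKM in vivo, with no call in limma against ADSCs (0.36, adjusted p = 0.273, and 0.60, adjusted p = 0.0576, without mouse 3). In the in vivo culture of mouse 1, Rpl39l was thus listed above Rpl39 per length.

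**Figure D5:**
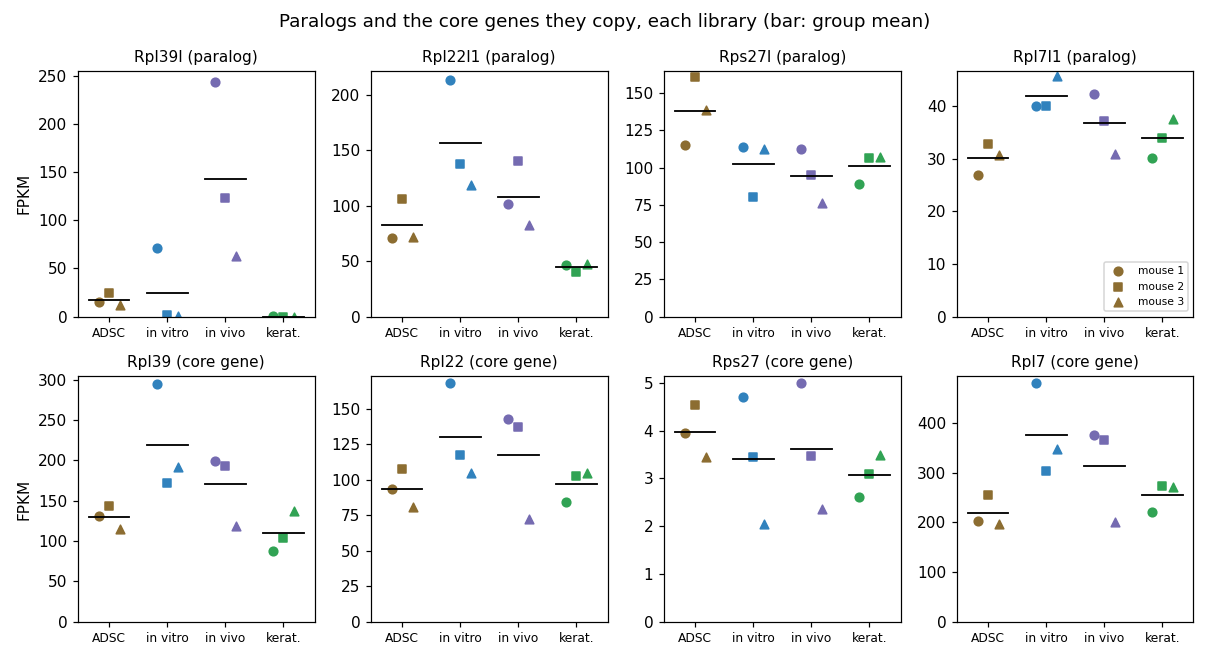
FPKM of 4 paralogs (top) and the core genes they copy (bottom) in each library, with symbols for the mouse and a bar at each group mean. Rpl39l reaches 243.3 in the in vivo iSEPs and is at most 0.083 in keratinocytes, while Rpl39 ranges from 87.7 to 294.2 over all libraries.

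Of other testis genes, only 12 germ cell and spermatid genes were looked at beside Rpl39l. None of the 12 reached 1 FPKM in any group, and the list summed to at most 0.44 FPKM in a library. In all in vivo libraries 6 of the 12 were listed at 0. None of 6 pluripotency genes reached 1 FPKM either. Over the 12 libraries genes whose log2(FPKM + 1) was most like that of Rpl39l by Pearson correlation included Mgll (0.904), AU022252 (0.904), Gm15867 (0.871), Lactb (0.871) and Zfp37 (0.867). Mgll encodes the lipase of monoacylglycerols and was at 25.72, 53.65 and 33.5 FPKM in in vivo iSEPs and at most 0.896 in keratinocytes. Of the core set, Rpl17 (0.64), Rps27rt (0.621), Rpl11 (0.609) and Rpl9 (0.564) were most like Rpl39l, and Rpl15 (-0.15), Rps4l (-0.141), Rps2 (-0.0129) and Rps16 (0.00733) least.

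Rpl22l1, a copy of the RNA-binding Rpl22, was lowest in keratinocytes. It was at 46.07, 39.99 and 47.41 FPKM there, at 70.71, 105.7 and 71.66 among ADSCs, at 212.8, 137.7 and 118.7 among in vitro iSEPs and at 101.7, 140 and 82.31 among in vivo iSEPs. No keratinocyte library overlapped with any other group, and all in vitro values lay above the ADSC range. Rpl22l1 rose in in vitro iSEPs against ADSCs by 0.89 (SE 0.25, limma adjusted p = 0.0106) and against keratinocytes by 1.75 (adjusted p = 0.00215). It was higher in in vivo iSEPs than in keratinocytes by 1.23 (adjusted p = 0.0132, and 0.0663 without mouse 2 of the keratinocytes), by 1.41 without mouse 3 of the in vivo iSEPs (adjusted p = 0.00574), and was lower in keratinocytes than in ADSCs, at -0.86 (adjusted p = 0.0131, and 0.0595 without mouse 2 of the ADSCs). Rpl22 gave no call in these comparisons, with differences of 0.45, 0.39, 0.21 and 0.06 in the same order. Rpl22l1 shares 57.3% of its 50-base words with other genes, all of them annotated pseudogenes.

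Rps27l, a copy of Rps27 and a known p53 target, was highest in ADSCs at 115.3, 160.7 and 138.4 FPKM. In vivo iSEPs had 112.2, 95.1 and 75.94, below every ADSC library, and the gene fell by 0.55 (SE 0.19, adjusted p = 0.0314). The adjusted p was 0.0545 with the replicate block, 0.0983 without mouse 3 of the in vivo iSEPs and 0.118 without mouse 2 of the ADSCs. In vitro iSEPs and keratinocytes gave -0.44 each against ADSCs (adjusted p = 0.0696 and 0.0661). Rps27l was thus listed opposite in direction to the core median of the in vitro iSEPs, without a call. Rps27 itself was listed at 3.978 ± 0.542 FPKM in ADSCs and 3.065 ± 0.439 in keratinocytes, but 51.1% of its 50-base words are shared and Rps27rt overlaps it. The coding sequences of this pair are 76.1% identical over 255 bases, with no identical run longer than 11 bases.

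Rpl7l1, a copy of Rpl7 with a role in assembling the large subunit, rose in in vitro iSEPs against ADSCs by 0.47 (SE 0.13, adjusted p = 0.0127). It was at 40.02, 40.1 and 45.77 FPKM in in vitro iSEPs and at 26.98, 32.73 and 30.71 in ADSCs, with no overlap. With FPKM rescaled to one total its adjusted p was 0.0764. The other comparisons of Rpl7l1 gave no call. Rpl3l, the muscle copy of Rpl3, was listed at 0 in 10 of 12 libraries and at an estimated 2 reads in each of the other two, while Rpl3 had 31.37 to 61.06 FPKM.

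Genes that build and use ribosomes are given as lists beside the members, and their counts are read against the shares of all genes called. Against ADSCs these were 32.1% higher and 21.7% lower for the in vitro iSEPs, 27.6% and 20% for the in vivo iSEPs (30.3% and 20.5% without mouse 3), and 32.8% and 20.7% for keratinocytes. Of 39 genes of ribosomal RNA transcription and ribosome assembly, 29 were higher and 0 lower in the in vitro iSEPs than in ADSCs, with a median log2 difference of 0.60. The 29 are 74.4% of the list, above the share of all genes. In the in vivo iSEPs 7 rose (17.9%, below the share of all genes), or 11 without mouse 3 (28.2%, near it), while keratinocytes had 12 higher (30.8%, near it) and 1 lower. Nhp2, a protein of snoRNA particles, rose in in vitro iSEPs by 1.33 (adjusted p = 0.00116), Polr1d, a subunit of RNA polymerases I and III, by 1.23 (adjusted p = 0.000495) and Nop10, a partner of Nhp2, by 1.23 (adjusted p = 0.000655). Of 18 elongation factors and other genes with TOP messengers, 11 rose in the in vitro iSEPs (61.1%), 5 in the in vivo iSEPs (27.8%, near the share of all genes) and 3 in keratinocytes (16.7%, below it), with 0 falling in each. The in vivo count was 12 (66.7%) when mouse 3 was left out. Eif3h, a subunit of initiation factor 3, rose in in vitro iSEPs by 0.91 (adjusted p = 0.000163), Eif3k, another subunit, by 0.82 (adjusted p = 0.000303) and Eif4b, a helper of the Eif4a helicase, by 0.71 (adjusted p = 0.00581).

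Initiation factors and their inhibitors were mixed. Against ADSCs, 7 of 21 rose and 2 fell in the in vitro iSEPs, 7 rose and 1 fell in the in vivo iSEPs, and keratinocytes had 8 higher and 0 lower. The higher shares, 33.3%, 33.3% and 38.1%, were within 6 percentage points of those of all genes. The in vivo counts were again 7 and 1 when mouse 3 was left out. Eif6, which keeps the subunits of new ribosomes apart, rose by 1.92 (adjusted p = 1.54e-06) in the in vitro iSEPs, by 1.82 (adjusted p = 2.57e-06) in the in vivo iSEPs, or 1.91 without mouse 3 (adjusted p = 4.23e-06), and by 1.34 (adjusted p = 2.58e-05) in keratinocytes. The cap-binding inhibitor Eif4ebp2 rose by 0.90 in in vitro iSEPs (adjusted p = 4.22e-05), whereas its relative Eif4ebp1 fell by 0.84 (adjusted p = 0.00344). Of 15 genes of the mTOR pathway and TOP regulators, 5 were higher (33.3%, near the share of all genes) and 1 lower in the in vitro iSEPs, with a median of 0.04.

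Myc, which drives genes of ribosome assembly in many cells, was at 19.88, 24.49 and 33.2 FPKM in ADSCs and at 153.4, 72.45 and 98.85 in in vitro iSEPs. It rose by 1.99 (adjusted p = 6.63e-05), with no overlap, by 1.37 in in vivo iSEPs (adjusted p = 0.00114, and 1.40 with adjusted p = 0.00264 without mouse 3) and by 1.28 in keratinocytes (adjusted p = 0.00158). The part of Myc in the core and list levels was not tested. Of 76 mitochondrial ribosomal protein genes that passed the filter, 32 were higher (42.1%, above the share of all genes) and 1 lower in the in vitro iSEPs. The in vivo iSEPs had 17 higher (22.4%) and 1 lower, and keratinocytes 13 higher (17.1%) and 1 lower, both below the higher share of all genes. The in vivo counts were 32 higher (42.1%) and 1 lower when mouse 3 was left out. In that fit keratinocytes had 24 higher (31.6%) and 1 lower, where 35.5% of all genes were higher. The median log2 difference of the mitochondrial genes in keratinocytes was 0.24, against 0.01 for the cytosolic core set and 0.18 for all genes. Of 15 cell cycle genes 2 rose in keratinocytes against ADSCs (13.3%, below the share of all genes) and 0 fell. Without mouse 3 of the in vivo iSEPs 6 of them rose there (40%) and 2 fell (13.3%), against 35.5% and 21.8% of all genes. The summed FPKM of the cell cycle genes was 217.9 to 354.3 for ADSCs, 161.3 to 224.6 for in vitro iSEPs, 79.89 to 706.8 for in vivo iSEPs and 338.3 to 445.9 for keratinocytes. The part of cell cycle state in the core levels was not tested.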

How the data were processed

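The authors deposited 1 table of FPKM values for 24537 genes. The submitters' processing notes name HOMER, STAR 2.5.1b, FastQC 0.11.5 and mm10, and per the file headers HOMER summed exon reads on the transcript's strand with 1 entry per gene. The sources used here do not say how reads matching several places were counted or whether the libraries mark strand. The table holds 3 columns that match no sample here and were not used. Columns were matched to samples by the labels' descriptions.

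Low FPKM values were whole multiples of 1 read (within 0.15) in 100% of cases, which gave the depth. FPKM are not counts, so log2(FPKM + 1) was fitted with limma 3.58.1 (R 4.3.3): 4 group means over 12 libraries, trended variance, 2-sided tests, Benjamini-Hochberg over the 12364 genes that reached 1 FPKM in 3 or more libraries, a call at adjusted p below 0.05. Tests were checked on simulated data with independent values, no mouse effect and no outlying library, so the check does not cover such features. Few reads lie behind low genes, so these are imprecise. P-values measure the spread between cultures of 3 mice. An adjusted p that misses the threshold does not show equality.

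The labels tie same-numbered samples to the same mouse, so the block is given where it changes a call. The correlation of same-mouse deviations over 18 pairs ran from -0.178 to 0.21, with a median of 0.045. Over 36 pairs of different mice it ran from -0.294 to 0.312, with a median of -0.0135. Members and lists were chosen with earlier results of these data known. Named genes are the paralogs and the genes they copy, 13 core genes named for their role, the extra copies, and per comparison the 4 called core genes with the largest rise and fall. Up to 3 called genes are named per related list, and the genes most like Rpl39l. Some genes that meet these rules are not reported here. Rps2, Rps3a1, Rpl29 and Rps10, the highest and lowest levels the shared-word analysis and the counts of the related lists without mouse 3 of the in vivo iSEPs were chosen after values were seen. Alternatives were other pseudocounts, filters and scalings, the replicate block, only the 2 groups compared, the core set without extra copies and each library left out. Shared 50-base words and coding sequences come from GENCODE M21 transcripts (mm10), starts from RefSeq (GRCm38.p6). No protein sequences were used here.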

Additional observations from a re-analysis of the deposited data

How the results depend on the processing

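The count of core genes called in in vitro iSEPs against ADSCs (29) was 19 with no filter on low values, 12 under median scaling and 10 with FPKM rescaled to one total. Of all genes 21.3%, 25.2% and 23.6% were called higher in these fits. For in vivo iSEPs against ADSCs (6) it was 3 under median scaling, of which 1 was lower, and 3 when rescaled. Of all genes 22.2% and 21.2% were called higher and 23.8% and 24% lower. For keratinocytes against ADSCs (2, both lower) it was 1 under the replicate block and 1 with a filter at 5 FPKM, again lower. Rpl21, at most 2.247 FPKM, does not pass that filter and was not tested there. The count was 4 under quantile normalization, of which 1 was higher, and 6 with only the 2 groups compared, of which 2 were higher. In the same order, 32.1%, 36.4%, 25.7% and 39.1% of all genes were called higher and 20.5%, 19.3%, 25.2% and 23.5% lower. For in vitro iSEPs against keratinocytes (5) it was 3 under the replicate block, 2 with no filter, 9 under median scaling, 8 under quantile normalization and 14 with only the 2 groups compared. All of these were higher, as were 4.89%, 2.79%, 6.33%, 6.15% and 6.92% of all genes in the same order. For in vivo iSEPs against keratinocytes (0) it was 1 when rescaled, called higher as were 3.12% of all genes. Fits with another filter or none test another number of core genes. The cause of the other shifts was not tested.

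Leaving out 1 library at a time gave 7 to 40 calls in in vitro iSEPs against ADSCs, 0 to 39 in in vivo iSEPs against ADSCs, 1 to 3 in keratinocytes against ADSCs, 0 to 30 in in vitro iSEPs against keratinocytes, 0 to 18 in in vivo iSEPs against keratinocytes and 0 to 1 between the iSEPs. In the same order, the share of all genes called higher ran over 27.1% to 34.7%, 23% to 30.3%, 26.6% to 35.6%, 1.96% to 7.71%, 1.48% to 5.4% and 0.162% to 1.71%. In keratinocytes against ADSCs 18.1% to 21.8% of all genes were called lower. Besides the libraries named with the results, the count for in vivo iSEPs against ADSCs was 1 without mouse 1 and 2 without mouse 3 of the ADSCs. For keratinocytes against ADSCs it was 1 without mouse 2 of the ADSCs and 1 without any 1 of the keratinocyte cultures. For in vitro iSEPs against keratinocytes it was 2 without mouse 1 and 2 without mouse 3 of the in vitro iSEPs. For in vivo iSEPs against keratinocytes and for in vivo against in vitro iSEPs it was 1 without mouse 1 of the in vivo iSEPs. Both of these calls were lower in vivo, where 8.37% and 1.19% of all genes were called lower. With the mouse as a replicate block the count was 25 in in vitro and 6 in in vivo iSEPs against ADSCs. Of all genes 31.6% and 27.2% were then called higher. Of the core and paralog calls named in the text only those given with a blocked value changed. Among 210 results of named genes, 30 were called, 9 held in all 20 alternatives and 0 reversed.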
